A study of Mus musculus with 57 samples.

Results

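The complement genes of mouse microglia were followed across genotype, sex and lipopolysaccharide treatment. The group holds 9 genes, chosen by symbol from the first column of both count tables: C1qa, C1qb, C1qc, C4b, C3, Cfb, Cfp, Serping1 and Cd55. All 9 were found in both tables, among 50565 genes in one and 53278 in the other. RNA had been sequenced in bulk from CD11b-positive brain cells, labelled as microglia, of adult wild-type (WT) mice and littermates deficient in P2RY12 (KO), a nucleotide receptor of resting microglia. In the sex experiment there were 9 males, 4 of them WT and 5 KO, and 9 females split the same way, none with a treatment in the labels. In the LPS experiment both genotypes were labelled either LPS, for an intraperitoneal dose of 1 mg/kg of bacterial lipopolysaccharide, an inflammatory stimulus, or ns, a term left undefined there. The strain, the knockout allele, the sex of the animals in the LPS experiment and the time between injection and cell isolation are not given in the sources used here, and the libraries may or may not come from separate animals there, so p-values measure the spread between these libraries.

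Complement is a cascade of blood and tissue proteins that tags targets for removal by phagocytes. In the classical pathway, C1q, built of the A, B and C chains encoded by C1qa, C1qb and C1qc, binds a target and starts the cleavage of C4 (C4b) and of C3, the protein on which all pathways converge. The alternative pathway amplifies C3 cleavage through factor B (Cfb), with properdin (Cfp) stabilising the convertase. C1 inhibitor (Serping1) blocks the first proteases, and decay-accelerating factor (Cd55) takes convertases apart on the cell surface. In the brain, microglia are the main source of C1q, and complement tagging is known for its part in the removal of synapses.

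All 9 genes lie on the minus strand in the annotation of the sex experiment's table (GRCm39). The C1q genes are neighbours on chromosome 4, with C1qb at 136607437 to 136613511, C1qc at 136617112 to 136620242 and C1qa at 136623227 to 136626155. C4b (34947249 to 34962876), Cfb (35075350 to 35081492) and C3 (57510967 to 57535136) lie on chromosome 17, Cfp on chromosome X (20791693 to 20797794), Serping1 on chromosome 2 (84595704 to 84605778) and Cd55 on chromosome 1 (130357526 to 130390513). C4b has a near-identical copy, C4a, and Cd55 has the paralog Cd55b and overlaps the antisense gene Cd55os by 8126 bases. How reads were split between such genes is not stated, so values of C4b and Cd55 are uncertain to that extent.

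RefSeq promoter sequences of build GRCm38.p6 matched 5 of the 9 genes: C1qb, C1qc, C3, Cfp and Cd55. No entry matched C1qa, C4b, Cfb or Serping1. The 250 bases before the annotated start are shown for C1qb and C1qc, neighbours of which C1qb passed the test in WT under LPS and C1qc did not, and for C3, the component on which the pathways converge. Each is written 5′ to 3′ on the gene's strand, at chr4:136886201-136886450, chr4:136892915-136893164 and chr17:57228137-57228386, all minus. Capitals mark matches to the motifs searched on both strands, and no 2 matches overlapped.
C1qb: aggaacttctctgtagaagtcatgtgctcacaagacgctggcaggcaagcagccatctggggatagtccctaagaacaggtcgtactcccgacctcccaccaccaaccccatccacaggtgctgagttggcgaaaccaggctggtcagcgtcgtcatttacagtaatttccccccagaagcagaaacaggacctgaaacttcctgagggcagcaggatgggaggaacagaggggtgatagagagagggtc
C1qc: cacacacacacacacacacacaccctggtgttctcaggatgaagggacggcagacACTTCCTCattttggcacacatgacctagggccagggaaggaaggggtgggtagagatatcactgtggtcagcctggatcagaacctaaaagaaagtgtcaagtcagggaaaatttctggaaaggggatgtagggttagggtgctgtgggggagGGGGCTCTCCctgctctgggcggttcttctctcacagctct
C3: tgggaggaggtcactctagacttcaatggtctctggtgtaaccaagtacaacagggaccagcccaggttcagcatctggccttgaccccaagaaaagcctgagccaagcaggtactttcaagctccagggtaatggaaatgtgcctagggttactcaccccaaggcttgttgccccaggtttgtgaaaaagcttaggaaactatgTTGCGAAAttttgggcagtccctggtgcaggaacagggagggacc

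The motifs were the interferon-stimulated response element, the gamma-activated site (TTCNNNGAA), the NF-kB site, the PU.1 site (GAGGAAGT) and the C/EBP site (TTGCNNAA). C1qc held 1 NF-kB match, starting 41 bases before the start, and 1 PU.1 match, starting 195 bases before it. C3 held 1 C/EBP match, starting 45 bases before the start, and C1qb, Cfp and Cd55 held none of the 5 motifs. Over 32851 promoters of the same length, 7.25% held the NF-kB motif, 2.44% the PU.1 motif, 9.56% the C/EBP motif, 2.98% the interferon-stimulated motif and 7.02% the gamma-activated motif. A match describes letters and not a bound site.

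Total counts ran from 58.5 M to 318.5 M per animal in the sex experiment and from 15.9 M to 168.4 M per sample in the LPS experiment. Of nonzero counts up to 20, 79.0 to 89.2% were even in the sex experiment and 39.7 to 45.6% in the LPS experiment. The cause was not tested, and counts of the 2 experiments may not be in the same unit. P2ry12, the targeted gene, was at 3007 to 5928 CPM (counts relative to the TMM-scaled library total) in WT, 309 to 438 CPM in female KO and from 439 CPM, with a median of 489 CPM, in male KO animals of the sex experiment. In the LPS experiment 4 WT libraries went against their labels. Those labelled WT ns 1 and 5 had P2ry12 at 481 and 927 CPM and Saa3, an acute-phase gene, at 1781 and 2491 CPM. Those labelled WT LPS 1 and 6 had P2ry12 at 4461 and 12154 CPM and Saa3 at 1.59 and 3.21 CPM. The other WT ns samples had P2ry12 at 3516 to 5406 CPM and Saa3 at 1.52 to 64.3 CPM, and the other WT LPS samples 400 to 1063 and 1418 to 9720 CPM. All 4 carry library number 2 in their names, and they were kept as 2 groups of their own. The remaining groups were 6 WT ns, 6 WT LPS, 8 KO ns and 8 KO LPS samples. A further 4 libraries of the second library set, KO ns 6, KO LPS 5, WT LPS 6 and WT LPS 7, had TMM scaling factors of 0.675 to 0.911, against 0.969 to 1.12 in the others. Microglial markers such as Tmem119 and Cx3cr1 summed to 16564 to 51420 CPM in the LPS experiment. Neutrophil markers (8 genes, among them S100a8 and Ngp) summed to 275 to 17651 CPM there, and passed 10000 CPM in WT ns 3, WT ns 8 and WT LPS 7. In bulk RNA, a change in the number of cells of a type and a change in RNA per cell cannot be told apart.

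Complement genes passed the test with LPS and not with genotype or sex. In edgeR's quasi-likelihood test with Benjamini-Hochberg adjustment over 15857 genes, 4 of the 8 complement genes tested rose with LPS in KO microglia (Cfb, C4b, Cd55 and C3) and 3 of 8 rose in WT microglia (Cfb, C1qa and C1qb), and 0 fell in either. Serping1 did not pass the filter on low counts. An adjusted p under 0.05 was reached by 28.3% of all genes in KO, 13.1% of them as rises, and by 30.3% in WT, 14.8% as rises. The median log2 fold change of the 8 genes was 1.23 in KO and 0.81 in WT, against -0.02 and -0.01 over all genes tested. With the labels of the 4 discordant libraries taken as given, 3 genes rose in KO (C4b, Cfb and Cd55) and 0 in WT, where 0 of all genes passed. Cell type markers moved with LPS too. Microglial markers summed to 33086, 37340 and 51420 CPM (lowest, median and highest) in KO ns and 21122, 24138 and 26933 CPM in KO LPS samples, 2 groups that did not overlap, and to 22188, 32998 and 38801 CPM in WT ns and 16564, 20411 and 25258 CPM in WT LPS samples. Neutrophil markers were at 275, 870 and 9873 CPM in KO ns and 939, 1977 and 4131 CPM in KO LPS samples, and at medians of 2488 and 2315 CPM in WT ns and WT LPS. Monocyte markers, all 5 of which were detected, were at 51.8, 134 and 1165 CPM in KO ns and 178, 324 and 610.5 CPM in KO LPS samples, and at medians of 319.9 and 372 CPM in WT ns and WT LPS. Border macrophage markers fell from medians of 490 to 267 CPM in KO and from 558 to 248 CPM in WT. Endothelial markers fell from medians of 68.5 to 27.7 CPM in KO and from 49.1 to 22.1 CPM in WT. Oligodendrocyte markers fell from medians of 101 to 77.4 CPM in KO and from 113 to 82.0 CPM in WT. The part of the microglial, monocyte, border macrophage, endothelial and oligodendrocyte markers in the complement changes was not tested.

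**Figure D1:**
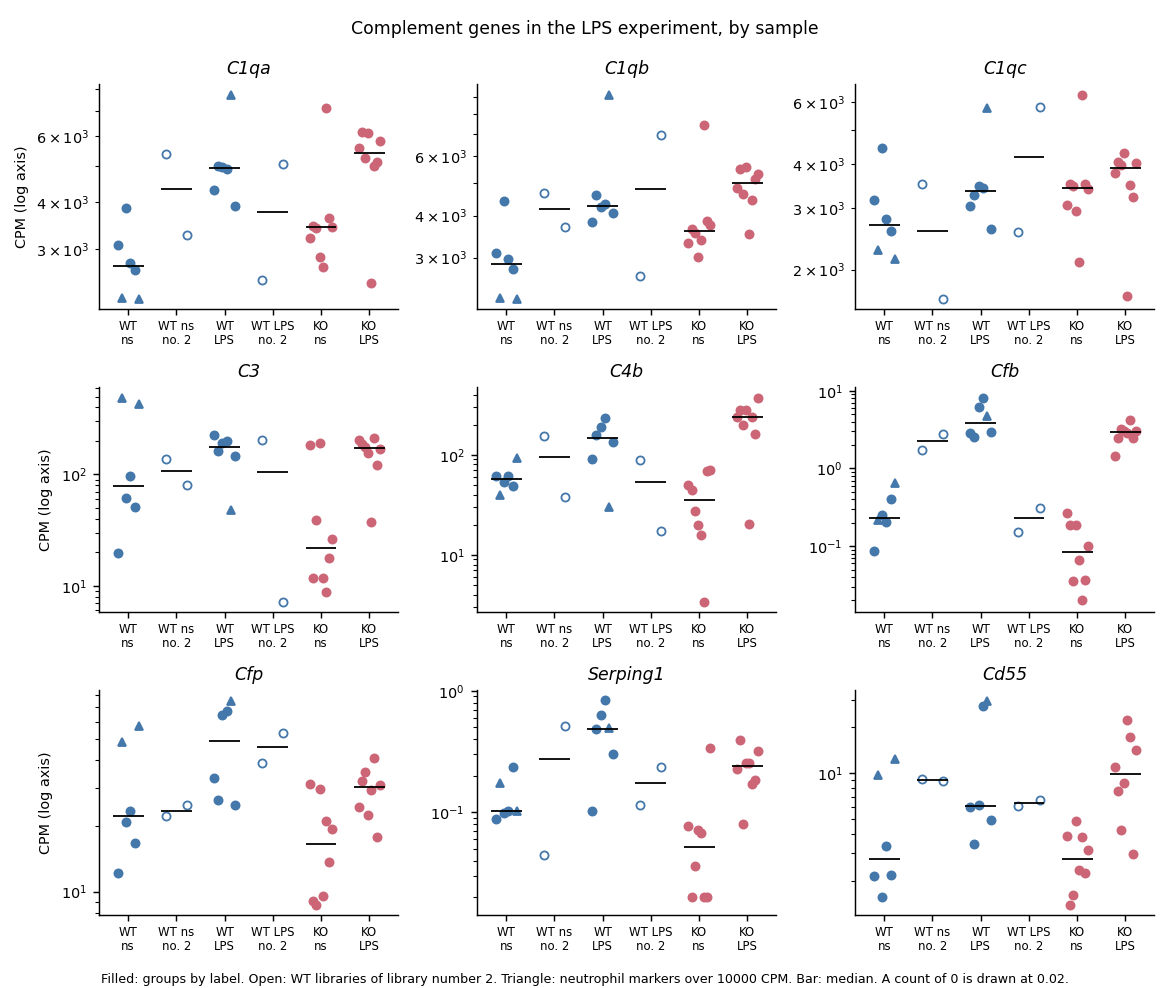
Normalised expression (CPM, log axis) of the 9 complement genes in every sample of the LPS experiment, by genotype and label, with a bar at each median; open circles are the WT libraries of library number 2, triangles have neutrophil markers above 10000 CPM. Cfb separates LPS from ns in both genotypes, with KO LPS samples at 1.45 to 4.19 CPM and KO ns samples at 0 to 0.27 CPM.

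Cfb, factor B, was the member with the clearest separation. In WT it lay at 0.09, 0.23 and 0.65 CPM (lowest, median and highest) under ns and at 2.52, 3.82 and 8.20 CPM under LPS. In KO it lay at 0, 0.08 and 0.27 CPM under ns and at 1.45, 2.96 and 4.19 CPM under LPS. Neither pair of groups overlapped. The rise was 3.89 ± 0.44 on the log2 scale in WT (SE, adjusted p = 1.02e-07) and 4.53 ± 0.42 in KO (adjusted p = 2.26e-09). The ns values rest on 0 to 8 reads per library in KO and 2 to 41 in WT, so the size of the fold is less certain than its direction. The 2 discordant pairs of WT libraries followed Saa3 and not their labels, at 1.72 and 2.77 CPM when labelled ns and at 0.15 and 0.31 CPM when labelled LPS. With labels as given the WT rise was 2.16 (adjusted p = 0.10). The pair labelled ns was also higher for Cd55, at 9.18 and 8.96 against 6.14 and 6.65 CPM. It was lower for Cfp, at 22.1 and 24.9 against 38.8 and 53.5 CPM. The pairs overlapped for C1qa, at 5382 and 3272 against 2489 and 5056 CPM. They also overlapped for C1qb (4658 and 3695 against 2641 and 6930 CPM) and C1qc (3504 and 1654 against 2566 and 5805 CPM). The same held for C3 (137 and 79.9 against 203 and 7.20 CPM) and C4b (153 and 38.1 against 89.1 and 17.3 CPM). Ordered by median, Cfb ran from KO ns through WT ns and KO LPS to WT LPS; the neighbouring pairs at ns and at LPS overlapped.

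C4b, the classical pathway's C4, rose in KO and not by the test in WT. In KO it lay at 3.41, 35.7 and 70.2 CPM under ns and at 20.6, 238 and 373 CPM under LPS, and 7 of the 8 KO LPS samples, from 160 CPM up, were above every KO ns sample. The exception was KO LPS 5, at 20.6 CPM. The rise was 2.56 ± 0.52 (adjusted p = 0.000365). In WT the range was 39.7, 57.5 and 93.6 CPM under ns and 30.0, 146 and 235 CPM under LPS, with a difference of 1.20 ± 0.58 (adjusted p = 0.12). WT LPS 7, at 30.0 CPM, was the lowest WT LPS sample. Both of these low samples are among the 4 with low scaling factors. Without those 4, chosen after the data were seen, C4b rose by 1.47 in WT (adjusted p = 0.00183) and by 2.64 in KO (adjusted p = 6.26e-07). With labels as given the WT difference was 0.78 (adjusted p = 0.35), and in the second library set alone the KO difference was 2.39 (adjusted p = 0.20). The WT difference passed in 3 other alternatives: in the first library set alone (1.52, adjusted p = 0.00487), where the second gave 1.05 (adjusted p = 0.64), with only the groups compared in the fit (1.22, adjusted p = 0.0348), and without number 2 in all groups (1.23, adjusted p = 0.0476).

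C3, the central component, passed in KO by a narrow margin. KO ns samples lay at 8.80, 22.03 and 191 CPM and KO LPS samples at 37.6, 174 and 214 CPM, a rise of 1.75 ± 0.67 (adjusted p = 0.0495). The ranges overlapped through KO ns 1 and KO ns 4, at 185 and 191 CPM, and through KO LPS 5, at 37.6 CPM. The call was lost on leaving out any 1 of 22 of the 32 samples, with adjusted p between 0.0205 and 0.096 over all 32, and with labels as given (1.70, adjusted p = 0.062). The first library set alone gave 0.79 (adjusted p = 0.54) and the second 3.14 (adjusted p = 0.0284). In WT, C3 was at 19.7, 79.1 and 490 CPM under ns and at 47.7, 178 and 225 CPM under LPS, a difference of -0.35 ± 0.73 (adjusted p = 0.75), and of -0.36 (adjusted p = 0.76) with labels as given. The highest WT ns values, 490 and 433 CPM, belonged to WT ns 3 and 8, whose neutrophil markers summed to 17651 and 16311 CPM, against 307 to 3450 CPM in the other 4 WT ns samples, and leaving out WT ns 8 alone turned the WT difference to 0.50 (adjusted p = 0.67). KO ns 1 and KO ns 4 stood at 6256 and 7198 CPM of neutrophil markers, and KO ns 6, with C3 at 8.80 CPM, at 9873 CPM. Without the 3 samples above 10000 CPM, all of them WT and left out after the data were seen, the WT difference was 1.42 (adjusted p = 0.22). With the log2 neutrophil marker sum as a covariate over all samples, an alternative chosen after the data were seen, it was 0.68 (adjusted p = 0.41), and the KO rise was 1.79 (adjusted p = 0.00799).

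**Figure D2:**
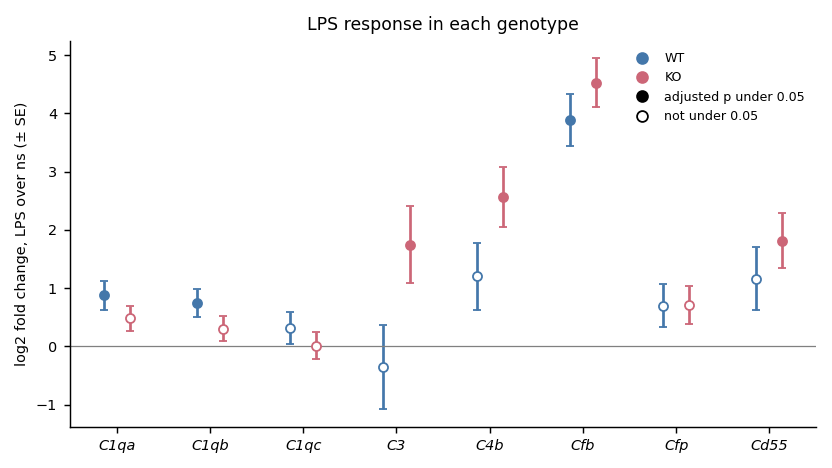
Log2 fold change of LPS over ns for the 8 complement genes tested, in WT (blue, without the libraries of library number 2) and KO (red), with standard errors; filled points have an adjusted p under 0.05. Cfb has the highest value in both genotypes, and C1qc lies nearest 0 in KO.

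C1qa and C1qb rose with LPS in WT, and C1qc did not pass. C1qa lay at 2218, 2702 and 3867 CPM in WT ns and at 3908, 4929 and 7725 CPM in WT LPS samples, 2 groups that did not overlap, and rose by 0.87 ± 0.25 (adjusted p = 0.00847). C1qb lay at 2268, 2868 and 4405 CPM in WT ns and at 3815, 4281 and 9132 CPM in WT LPS samples, and rose by 0.74 ± 0.25 (adjusted p = 0.0228). C1qc lay at 2145, 2683 and 4433 CPM and at 2615, 3341 and 5760 CPM, a difference of 0.32 ± 0.27 (adjusted p = 0.40). With labels as given the differences of C1qa, C1qb and C1qc were 0.59, 0.58 and 0.42 (adjusted p = 0.15, 0.15 and 0.28). Without the 3 samples with neutrophil markers above 10000 CPM they were 0.58, 0.35 and -0.04 (adjusted p = 0.16, 0.37 and 0.95), so that neither call held. This exclusion takes out WT LPS 7, the highest WT LPS sample for each of these genes. With the neutrophil marker covariate both calls held, at 0.86 for C1qa (adjusted p = 0.00999518) and 0.73 for C1qb (adjusted p = 0.0274). C1qc then differed by 0.31 (adjusted p = 0.42). Within the first and the second library set alone C1qa differed by 0.66 and 1.11 (adjusted p = 0.00566 and 0.16) and C1qb by 0.39 and 1.12 (adjusted p = 0.11 and 0.13). The C1qb call was also lost with only the groups compared in the fit (adjusted p = 0.052) and on leaving out WT LPS 7, WT ns 8 or WT ns 7 alone (adjusted p = 0.105, 0.0633 and 0.0525).

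In KO none of the C1q genes passed in the fit over all samples. C1qa lay at 2686, 3429 and 7105 CPM under ns and at 2437, 5421 and 6150 CPM under LPS, a difference of 0.48 ± 0.22 (adjusted p = 0.10). C1qb differed by 0.30 ± 0.21 (adjusted p = 0.32), from a median of 3591 to 4982 CPM, and C1qc by 0.01 ± 0.23 (adjusted p = 0.99), from 3423 to 3879 CPM. The ranges of C1qa crossed through KO ns 6, the highest KO ns sample, and KO LPS 5, the lowest KO LPS sample. Leaving out KO ns 6 alone gave C1qa a rise of 0.72 (adjusted p = 0.0045), and leaving out KO LPS 5 alone a rise of 0.60 (adjusted p = 0.0216). Without these and the other 2 samples with low scaling factors, C1qa rose by 0.81 (adjusted p = 1.3e-06) and C1qb by 0.56 (adjusted p = 0.000194) in KO, while C1qc differed by 0.32 (adjusted p = 0.0521). In WT the values without them were 0.73 (adjusted p = 3.39e-05), 0.52 (adjusted p = 0.00158) and 0.13 (adjusted p = 0.52). Within the first library set alone C1qa and C1qb rose in KO by 0.86 (adjusted p = 0.000254) and 0.63 (adjusted p = 0.00574), and within the second they differed by 0.24 (adjusted p = 0.84) and 0.11 (adjusted p = 0.93).

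C1qc RNA fell relative to C1qa RNA with LPS in both genotypes. The ratio of C1qc to C1qa counts within a library needs no scaling between libraries. It was 0.967, 1.02 and 1.15 (lowest, median and highest) in WT ns samples and 0.653, 0.697 and 0.746 in WT LPS samples. In KO it was 0.783, 0.977 and 1.03 under ns and 0.627, 0.691 and 0.758 under LPS. The mean fell from 1.02 to 0.695 in WT, with a two-sided exact permutation p of 0.00216, and from 0.953 to 0.687 in KO, with an exact permutation p of 0.000155. Both are the smallest p the design allows, and adjusted over the 12 ratio comparisons made they are 0.013 and 0.00186. The comparison was chosen after the values were seen. The groups did not overlap in either genotype or within either library set, and leaving out any 1 sample kept the difference between -0.34 and -0.31 in WT and between -0.29 and -0.25 in KO. Of the discordant libraries, the pair labelled WT ns had ratios of 0.651 and 0.506 and the pair labelled WT LPS 1.03 and 1.15. With labels as given the WT difference was -0.12 (exact permutation p = 0.246).

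Over both library sets together, the ratio of C1qb to C1qa overlapped between ns and LPS. Its mean was 1.05 and 0.961 in WT (exact permutation p = 0.143, adjusted 0.429) and 1.08 and 0.974 in KO (exact permutation p = 0.202, adjusted 0.485). Within the first library set the C1qb ratio was lower under LPS without overlap. There it was 1.00 to 1.14 in WT ns and 0.853 to 0.919 in WT LPS samples. In KO it was 1.03 to 1.06 under ns and 0.866 to 0.910 under LPS. The overlap lay in the second set, with 1.02 to 1.07 in WT ns and 0.884 to 1.18 in WT LPS samples. In KO that set had 1.05 to 1.26 under ns and 0.888 to 1.44 under LPS. Between genotypes the C1qc ratio differed by -0.072 at ns (exact permutation p = 0.0999, adjusted 0.40) and by -0.0073 under LPS (exact permutation p = 0.709). In the sex experiment all 18 animals had a C1qc ratio between 0.946 and 1.10, and KO and WT means differed by -0.032 in males (exact permutation p = 0.349) and -0.019 in females (exact permutation p = 0.317). Because transcript lengths differ, a ratio near 1 does not mean equal numbers of molecules.

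**Figure D3:**
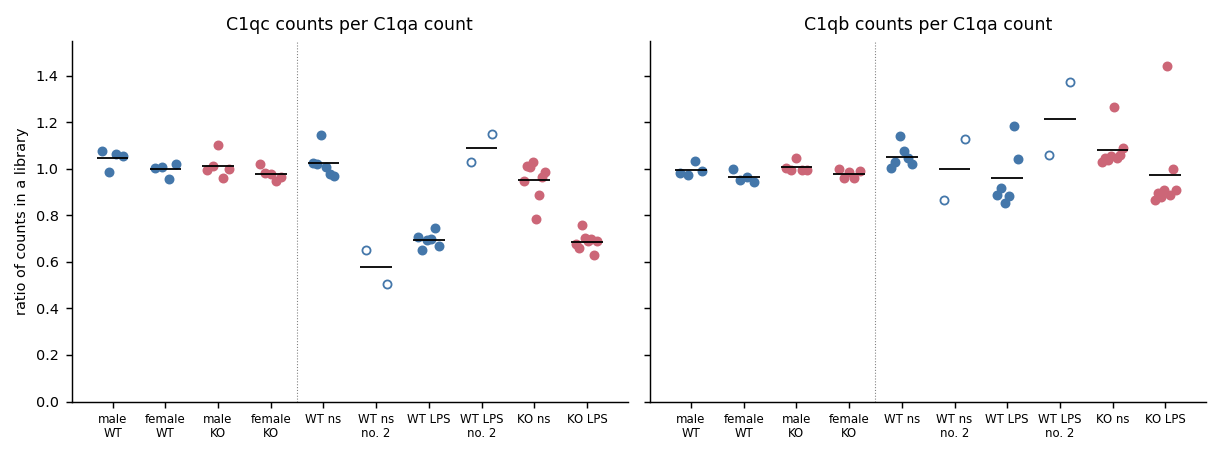
Counts of C1qc (left) and C1qb (right) per count of C1qa in each animal of the sex experiment and each sample of the LPS experiment, with a bar at each group mean; open circles are the WT libraries of library number 2. The C1qc ratio lies between 0.627 and 0.758 in WT LPS and KO LPS samples and between 0.783 and 1.15 in WT ns and KO ns samples. In the sex experiment, counted in a separate table, it lies between 0.946 and 1.10.

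Cfp, properdin, did not pass in either genotype in the fit over all samples. It lay at 12.2, 22.1 and 57.5 CPM in WT ns, at 24.8, 49.0 and 75.2 CPM in WT LPS, at 8.71, 16.5 and 31.3 CPM in KO ns and at 17.9, 30.0 and 40.9 CPM in KO LPS samples, so that all 4 groups overlapped. The difference was 0.70 ± 0.38 in WT (adjusted p = 0.16) and 0.71 ± 0.33 in KO (adjusted p = 0.11). The highest WT ns values, 57.5 and 48.6 CPM, again belonged to WT ns 8 and WT ns 3, and the highest of all to WT LPS 7, the third sample above 10000 CPM of neutrophil markers. Without these 3 samples, an exclusion chosen after the data were seen, Cfp rose by 1.25 in WT (adjusted p = 0.0208). Leaving out KO ns 1, the highest KO ns sample, gave a rise of 0.89 in KO (adjusted p = 0.0448), and blocking on the library number one of 0.78 (adjusted p = 0.0484). With the neutrophil marker covariate Cfp rose in both genotypes, by 0.83 in WT (adjusted p = 0.00759) and 0.66 in KO (adjusted p = 0.0143).

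Of the regulators, Cd55 rose in KO from 1.39, 2.77 and 4.91 CPM under ns to 2.99, 9.82 and 22.4 CPM under LPS, by 1.81 ± 0.47 (adjusted p = 0.00428). The KO groups overlapped through KO LPS 3 and KO LPS 7, at 4.25 and 2.99 CPM. Within the first and the second library set alone the KO difference was 1.42 and 2.40 (adjusted p = 0.0703 and 0.0689). In WT it lay at 1.56, 2.76 and 12.3 CPM and at 3.48, 6.13 and 29.8 CPM, a difference of 1.16 ± 0.54 (adjusted p = 0.10), and of 0.72 (adjusted p = 0.35) with labels as given. The 2 WT ns samples with most neutrophil marker RNA had 12.3 and 9.81 CPM of Cd55, and the other 4 had 1.56 to 3.35 CPM. Without the 3 samples above 10000 CPM of neutrophil markers Cd55 rose in WT by 2.02 (adjusted p = 0.00695). This exclusion was chosen after the data were seen. It takes out the 2 highest WT ns values and the highest WT LPS value, so the size of the rise depends on the choice. Leaving out WT ns 3 alone gave a rise of 1.62 (adjusted p = 0.0259). With the neutrophil marker covariate Cd55 rose by 1.35 in WT (adjusted p = 0.00874) and by 1.69 in KO (adjusted p = 0.000365). Serping1 was found at 0 to 18 reads per sample, at most 0.84 CPM, with medians of 0.10 CPM in WT ns, 0.49 in WT LPS, 0.05 in KO ns and 0.24 in KO LPS samples. With no low-count filter its WT difference of 1.78 had an adjusted p of 0.0436 and its KO difference of 1.60 one of 0.0586.

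P2RY12 deficiency was not accompanied by a called change in these genes in the LPS experiment. Between KO and WT under ns, 0 of 8 genes passed edgeR's test, against 0.0883% of all genes, with 3 at an unadjusted p under 0.05 (C3, Cfb and Cfp), a level reached by 1415 of the 15857 genes tested. Under LPS 0 of 8 passed, against 0.0946% of all genes, with 1 at an unadjusted p under 0.05 (Cfp), against 957 of all genes. For the genotype-by-LPS interaction 0 of 8 passed, against 0% of all genes, with C3 alone at an unadjusted p under 0.05, against 756 of all genes. DESeq2 called 0 in each. C3 was lower in KO than in WT under ns by a fitted -2.11 ± 0.71 (adjusted p = 0.43), and by -0.47 (adjusted p = 0.82) without the 3 samples above 10000 CPM of neutrophil markers. Cfb differed by -1.30 ± 0.45 under ns (adjusted p = 0.43) and by -0.66 ± 0.35 under LPS (adjusted p = 0.87). The interaction was 2.10 ± 0.99 for C3 and 1.36 ± 0.75 for C4b (adjusted p = 0.75 for both). A call in KO and not in WT, as for C3, C4b and Cd55, or in WT and not in KO, as for C1qa and C1qb, is therefore not a shown difference between genotypes. With labels as given, 0 passed in each of these 3 comparisons too.

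In the sex experiment, without LPS, none of the 9 genes passed between KO and WT. With edgeR, 0 of 9 passed over both sexes, against 0.432% of 31709 genes, with 5 at an unadjusted p under 0.05, a level reached by 2860 of all genes. In males 0 of 9 passed, against 0.00946% of all genes, and 0 had an unadjusted p under 0.05, against 2171 of all genes. In females 0 of 9 passed, against 0.164%, and 4 had an unadjusted p under 0.05, against 1655 of all genes. The sex-by-genotype interaction gave 0 of 9, against 0% of all genes, and female against male WT gave 0 of 9, against 0.0725%, each with 0 at an unadjusted p under 0.05, against 879 and 2379 of all genes. DESeq2 called 0 in all 5.

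C1qa was at 2094, 1987, 1930 and 1149 CPM in the male WT animals, at 1940, 1890, 1739 and 1400 CPM in the female WT animals, at 1785 to 2271 CPM in the 5 male KO and at 2097 to 2410 CPM in the 5 female KO animals. The lowest values were those of male WT 5 and female WT 2, also for C1qb (1126 and 1333 CPM) and C1qc (1235 and 1411 CPM). Over both sexes KO minus WT was 0.27 ± 0.10 for C1qa, 0.29 ± 0.10 for C1qb and 0.24 ± 0.09 for C1qc (adjusted p = 0.43, 0.37 and 0.49). Without those 2 animals the differences were 0.15, 0.16 and 0.12 (adjusted p = 0.51, 0.37 and 0.75). With the log2 neutrophil marker sum as a covariate they were 0.23, 0.24 and 0.19 (adjusted p = 0.17, 0.097 and 0.27). Both alternatives were added after the data were seen.

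C3 was at 1016 CPM in male WT 5 and 571 CPM in female WT 2, and between 20.8 and 139 CPM in the other 16 animals. Cfp was at 73.2 and 55.7 CPM in the same 2 animals and at 6.71 to 20.5 CPM in the others, and Cd55 at 39.4 and 30.1 CPM against 3.80 to 11.9 CPM. The neutrophil markers, all 8 of which were detected, summed to 47794 and 28057 CPM in these 2 animals and to 698 to 7449 CPM in the others. Monocyte markers, such as Ccr2, summed to 3509 and 1959 CPM, and to 85.8 to 512 CPM in the others. Microglial markers were lower in these 2 animals, at 22452 and 22966 CPM, than in the other 16. KO minus WT over both sexes was -1.64 ± 0.72 for C3, -1.01 ± 0.51 for Cd55 and -0.96 ± 0.49 for Cfp (adjusted p = 0.54, 0.59 and 0.60). Without the 2 animals the sign turned, to 0.45, 0.28 and 0.27 (adjusted p of 0.996 or above). With the neutrophil marker covariate the values were 0.12, -0.11 and -0.06, so that only C3 turned. Blocking on the replicate number kept all of them negative, at -0.47, -0.49 and -0.45. C4b was at 17.3 to 28.4 CPM in male WT, 24.6 to 37.9 CPM in male KO, 19.9 to 44.0 CPM in female WT and 22.5 to 92.5 CPM in female KO animals, a difference of 0.68 ± 0.25 (adjusted p = 0.48). Cfb lay between 1.72 and 4.34 CPM and Serping1 between 0.05 and 0.40 CPM in all 18 animals, and KO minus WT was 0.09 ± 0.20 and -0.01 ± 0.33. These Cfb values are above the 0 to 0.65 CPM of the ns samples of the LPS experiment, the libraries of number 2 aside. Values of the 2 experiments were not put on a common scale, and the reason for this gap was not tested.

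**Figure D4:**
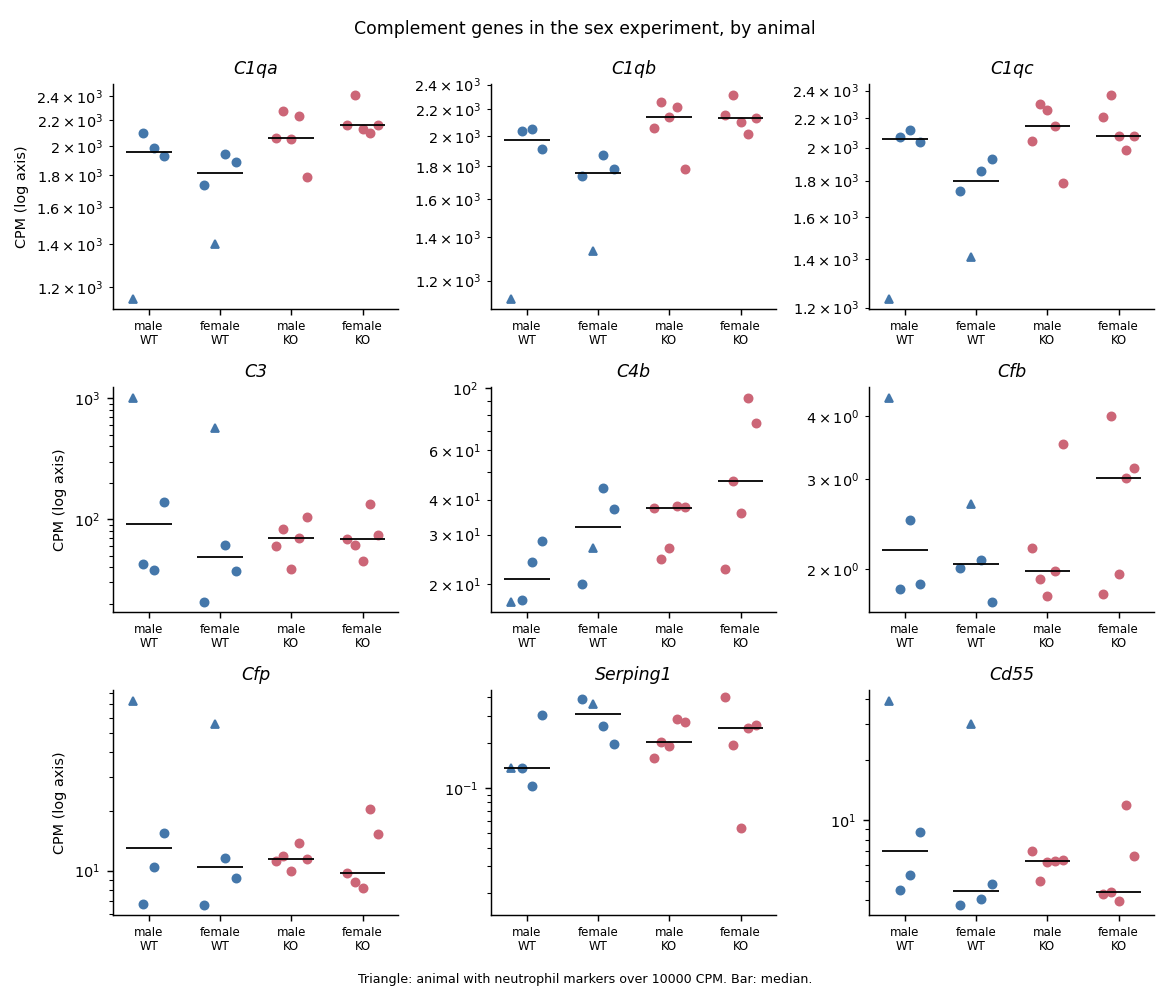
Normalised expression (CPM, log axis) of the 9 complement genes in each of the 18 animals of the sex experiment, with a bar at each median; triangles are male WT 5 and female WT 2, the animals with neutrophil markers above 10000 CPM. These 2 animals are lowest for C1qa, C1qb and C1qc and highest for C3, Cfp and Cd55.

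**Figure D5:**
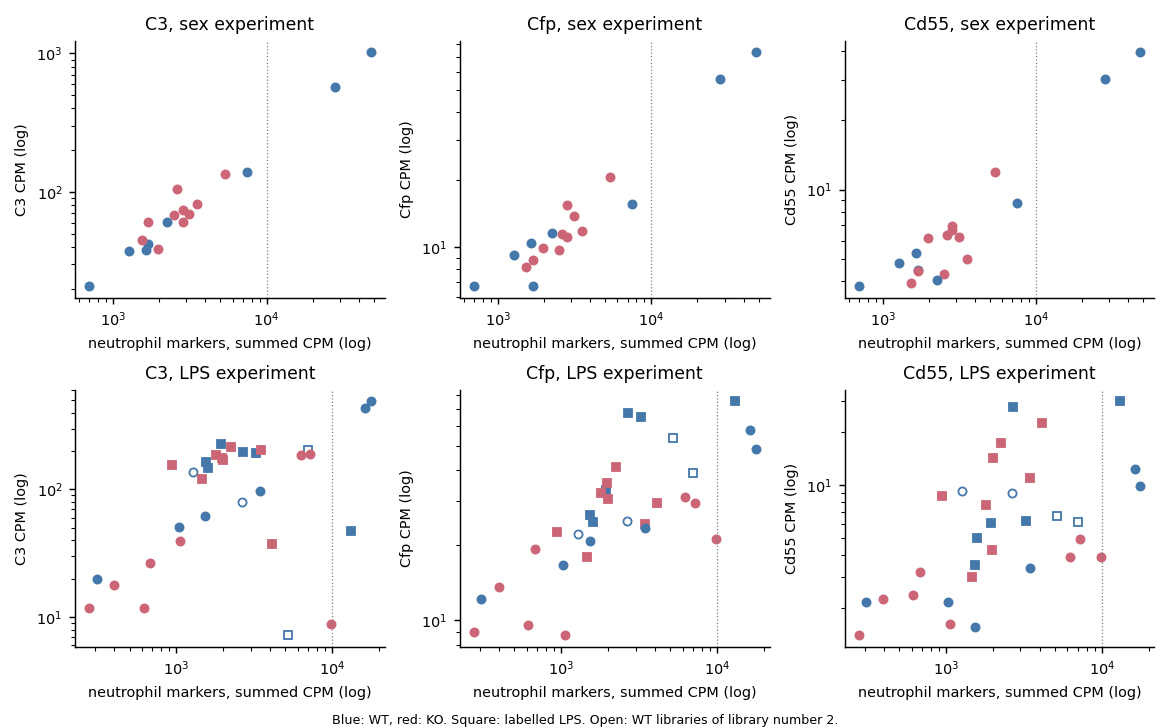
CPM of C3, Cfp and Cd55 against the summed CPM of 8 neutrophil marker genes (both axes log), for the animals of the sex experiment (top) and the samples of the LPS experiment (bottom); the dotted line is at 10000 CPM. In the sex experiment the 3 animals with most neutrophil marker RNA hold the 3 highest C3 values, 1016, 571 and 139 CPM.

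The other genes of the cascade were counted from a list of 47, of which 25 were tested in the LPS experiment. In KO 6 rose and 5 fell with LPS, and in WT 5 rose and 7 fell, with medians of -0.28 and -0.29. Over all genes tested 13.1% rose and 15.2% fell in KO, and 14.8% rose and 15.5% fell in WT, with medians of -0.02 and -0.01. The receptors for the C3a and C5a fragments rose in both genotypes. C5ar1 went from medians of 99.8 to 388 CPM in WT and from 76.4 to 342 CPM in KO, by 2.11 ± 0.16 and 2.11 ± 0.14 (adjusted p = 1.73e-10 and 5.61e-12). C3ar1 rose by 2.597 ± 0.398 in WT and 1.28 ± 0.33 in KO (adjusted p = 1.14e-05 and 0.00353). The third was C1ra, a C1 protease, in KO (1.13 ± 0.19, adjusted p = 5.1e-05) and C1qbp, a C1q-binding protein, in WT (1.11 ± 0.18, adjusted p = 3.44e-05). On the falling side Masp1, a lectin pathway protease, was at -2.25 ± 0.36 in WT and -1.54 ± 0.31 in KO (adjusted p = 2.23e-05 and 0.000287), and ficolin A (Fcna), a lectin pathway recognition protein, at -2.25 ± 0.39 and -1.84 ± 0.34 (adjusted p = 7.03e-05 and 0.000117). Fcnb, ficolin B, fell in WT by 4.75 (adjusted p = 0.00774), with its highest values, 129 and 89.3 CPM, in the 2 WT ns samples above 10000 CPM of neutrophil markers and 0.18 to 8.59 CPM in the other WT ns samples, while Cpn1, a carboxypeptidase that trims C3a and C5a, fell in KO by 1.30 (adjusted p = 0.0306). Between KO and WT 0 of the 25 passed under ns or LPS or for the interaction, against 0.0883%, 0.0946% and 0% of all genes. In the sex experiment 0 of 46 passed in any of the 5 comparisons, in which at most 0.432% of all genes passed.

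Across the 32 samples of the LPS experiment, with each library set centred on its own mean of log2 CPM, C1qa and C1qb were each other's closest gene of 15856 (Pearson r = 0.94). C1qc was closest to Bsg (r = 0.93), with C1qb at rank 30 and C1qa at rank 44. Cfb was closest to Lipg, Oasl1 and Il2rg (r = 0.95 each), and C4b to Sdc3, Siglec1 and St3gal1 (r = 0.94, 0.93 and 0.93). C3 was closest to Crispld2, Fanca and Atp10a (r = 0.95, 0.94 and 0.94), Cd55 to Gm15675, Cmpk2 and Kif2c (r = 0.92, 0.88 and 0.85), and Cfp to Anxa2, Gm21188 and Il1f9 (r = 0.87, 0.86 and 0.86). These correlations are a description: the samples share the LPS contrast, depth and cell mixture.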

How the data were processed

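The genes described and the lists used were chosen with earlier results of these data known. Reads were aligned with STAR 2.6.1 and counted with featureCounts (Subread), on GRCm39, per the submitters' processing notes, which do not say for which table. The authors deposited raw read counts per gene, 1 table per experiment, as whole numbers. Computed from the start and end positions, gene lengths in the sex experiment's table equal the whole span, introns included. The 6 repeat libraries listed in the labels for the sex experiment were not analysed here. WT LPS 8 and WT LPS 9 differed by far less than other pairs (chi-square per degree of freedom 1.86, against at least 8.32) and were summed as 1 sample.

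Counts were filtered (filterByExpr), TMM-scaled and tested with edgeR 4.0.16 in R 4.3.3, with the library set as covariate in the LPS experiment, and p-values were adjusted by Benjamini-Hochberg over all genes tested. The WT libraries of library number 2 had group means of their own, a choice made after earlier results were seen. Fold changes are log2 with the standard error. Calls need an adjusted p under 0.05. The pipeline was tested on simulated data. Ratios were tested by exact permutation over samples (SciPy 1.17.1). All 9 genes and, of 47 other complement genes, the 3 called with the largest change in each direction are named. Alternatives were DESeq2 1.42.0, RLE scaling, 2 other filters, other groupings of samples, a neutrophil marker covariate and leaving out each library. The covariate and the exclusions by neutrophil markers or by scaling factor, in both experiments, were added after the data were seen. Depth is given in the report, and intervals are over samples.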

Additional observations from a re-analysis of the deposited data

Results flagged for a closer look

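Libraries were looked at again where 1 sample of a group of 4 to 10 lay far from the rest by Dixon's criterion on log2 CPM. Over 72 gene and group pairs 17 such values were found, and chance alone gives about 1 in 20. Many of them come from the same few libraries.

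In the sex experiment male WT 5 was low for C1qa (1149 CPM, where the other 3 male WT animals had 1930 to 2094 CPM), C1qb (1126 CPM) and C1qc (1235 CPM). Female KO 2 was high for C1qa (2410 CPM, the other female KO animals at 2097 to 2159), and female WT 2 was high for Cd55 (30.1 CPM, the others at 3.80 to 4.79).

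In the LPS experiment KO ns 6 was high for C1qa (7105 CPM), C1qb (7443 CPM) and C1qc (6294 CPM). WT LPS 7 was high for C1qa (7725 CPM), C1qb (9132 CPM) and C1qc (5760 CPM) and low for C3 (47.7 CPM, the other WT LPS samples at 147 to 225). KO LPS 5 was low for C1qa (2437 CPM), C1qc (1685 CPM), C3 (37.6 CPM) and C4b (20.6 CPM, the other KO LPS samples at 160 to 373). KO ns 8 was high for Serping1, at 0.339 CPM from 10 reads. KO ns 6, WT LPS 7 and KO LPS 5 are 3 of the 4 libraries with TMM scaling factors under 0.95, and whether this moves their complement genes was not tested beyond leaving them out.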

How the results depend on the processing

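The number of complement genes called changed by over 1.5 times in 5 cases. For LPS against ns in KO, 4 genes passed, and 2 did with a filter at a mean of 5 CPM (C4b and Cd55; Cfb was then filtered out, so fewer genes were tested) and 2 in the second library set alone (C3 and Cfb, on fewer samples). For LPS against ns in WT, 3 passed, and 0 did with labels as given, 1 in the second library set alone (Cfb), and 5 with the log2 neutrophil marker sum as a covariate (C1qa, C1qb, Cfb, Cfp and Cd55), an alternative added after the data were seen; the cause of the last was not tested. Leaving out 1 sample in turn gave 3 to 5 genes in KO and 2 to 4 in WT. Every genotype and sex comparison gave 0 under all alternatives run. No called value changed sign. Over the 46 or 47 alternatives in which each was tested, Cfb passed in 46 in KO and 45 in WT, C4b in 46 and Cd55 in 45 in KO, C1qa in 44 and C1qb in 39 in WT, and C3 in 19 in KO. Over all genes, LPS against ns in WT gave 4811 calls, 0 with labels as given and 589 in the second set alone, LPS against ns in KO gave 4481, 7058 in the first set alone and 756 in the second, and KO against WT over both sexes gave 137, and 358 by DESeq2.

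Samples of the same number were on average somewhat more alike than others, and the main fit did not use the number. Of 35 same-numbered pairs in the LPS experiment 17 had a correlation of deviations over 0.1 (mean 0.10), against 43 of 111 differently numbered pairs (mean -0.017). In the sex experiment 5 of 8 same-numbered pairs did (mean 0.13), against 7 of 32 others (mean -0.03). A pairing by number can therefore not be excluded. With the number as a replicate block 5 genes passed in KO, 3 in WT and 0 in every other comparison. Depth limits Serping1 and Cfb at ns, whose values rest on few reads.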
